A study of Mus musculus with 16 samples.

Results

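The MHC class II presentation genes examined here were Ciita, Cd74, H2-Aa, H2-Ab1, H2-Eb1, H2-DMa, H2-DMb1, H2-DMb2, H2-Oa and H2-Ob, and their members were all probes annotated with one of these 10 symbols. They held 14 of the 25697 probes on the array and 10 of the 16590 genes with a probe. Cd74 had 2 probes, H2-Ab1 had 4 and the other 8 genes had 1 each. All 14 probes had signal above the negative controls on all 8 arrays, so none was lost to the filter on dim probes.

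The RNA came from 8 B cell lymphomas of C57B6 mice, measured on Illumina bead arrays, with 4 tumours of genotype Eµ-Myc and 4 of genotype Eµ-Myc Wrn Δhel/Δhel. All 8 tumours carried the Eµ-Myc transgene, in which the immunoglobulin heavy chain enhancer drives Myc in the B lineage. The second group, called the Wrn tumours here, also carried on both copies a Wrn allele that lacks part of the helicase domain. Tumours are numbered by the replicate numbers of the labels. Titles add a letter of unstated meaning, which was E for numbers 1 and 3 of the Eµ-Myc group and for numbers 2 and 4 of the Wrn group, and L for the rest. No label gives the age of the mice or says whether each tumour had its own mouse. The p-values therefore measure only how far these samples spread, which may be technical, and with 8 arrays the precision is limited.

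Class II molecules are pairs of an alpha and a beta chain on B cells, dendritic cells and macrophages that show peptides from the endosome to CD4 T cells. The invariant chain Cd74 fills the groove of a newly made class II molecule, H2-DM removes its last fragment so that a peptide can bind, and H2-DO restrains H2-DM, mostly in B cells. Transcription of these genes depends on Ciita, a coactivator that binds no DNA itself and is held at their promoters by RFX, CREB and NF-Y proteins on the X and Y boxes.

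Because the results below turn on whether these genes followed Ciita, the part of their promoters that holds these boxes is shown. RefSeq promoter windows of build GRCm38.p6, from 250 bases before to 50 after each gene's start, were found for 7 of the 10 genes, and Ciita, Cd74 and H2-Ab1 are named only. The stretches are 71 bases long and are read 5′ to 3′ along the gene's strand. They lie at chr17:34287855-34287925 for H2-Aa on the minus strand, and on the plus strand at chr17:34305754-34305824 for H2-Eb1, chr17:34153076-34153146 for H2-DMb1, chr17:34145105-34145175 for H2-DMb2, chr17:34092282-34092352 for H2-Oa and chr17:34238794-34238864 for H2-Ob. Capitals mark GCAAC, from the X box, ATGATGC, from its far side, and TGATTGG, the Y box with the inverted CCAAT that NF-Y binds.
H2-Aa: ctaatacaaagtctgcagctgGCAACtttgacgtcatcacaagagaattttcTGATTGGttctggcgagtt
H2-Eb1: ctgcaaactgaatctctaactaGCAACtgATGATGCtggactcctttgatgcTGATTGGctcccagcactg
H2-DMb1: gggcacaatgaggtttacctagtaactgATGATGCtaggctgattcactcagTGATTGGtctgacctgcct
H2-DMb2: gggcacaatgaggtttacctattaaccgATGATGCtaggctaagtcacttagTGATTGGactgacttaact
H2-Oa: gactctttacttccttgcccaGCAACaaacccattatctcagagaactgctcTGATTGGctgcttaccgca
H2-Ob: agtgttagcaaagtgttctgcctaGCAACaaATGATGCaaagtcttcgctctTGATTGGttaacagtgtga

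The motifs were chosen after these windows were read, were searched on both strands and do not overlap each other in them. TGATTGG was in the windows of these 6 genes, 45 to 92 bases before the start, and in 7.8% of the 32817 distinct windows of the table. GCAAC lay upstream of it in H2-Aa, H2-Eb1, H2-Oa and H2-Ob, and some copy of GCAAC was in 35.2% of all windows. ATGATGC lay between them in H2-Eb1 and H2-Ob and upstream in H2-DMb1 and H2-DMb2, against 2.46% of all windows. Neither of the 2 windows of H2-DMa held TGATTGG, and one held GCAAC on the opposite strand. The stretches of H2-DMb1 and H2-DMb2, neighbouring copies of the DM beta chain gene, were identical at 62 of 71 bases. A match is a run of letters and was not tested as a binding site.

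Values are log2 intensities after background correction and quantile normalization with limma's neqc, and adjusted p-values are Benjamini-Hochberg values over all 11024 tested probes. Ciita, the coactivator, stood at 7.36, 7.82, 7.80 and 6.54 in Eµ-Myc tumours 1 to 4 and at 8.07, 7.81, 7.99 and 8.21 in Wrn tumours 1 to 4. Eµ-Myc tumour 4 stood apart as the lowest, and 3 of the 4 Wrn tumours lay above every Eµ-Myc tumour. The difference, Wrn minus Eµ-Myc, was 0.64 ± 0.27 on the log2 scale (SE, n = 4 and 4), a ratio of 1.56 with a 95% interval of 1.02 to 2.38. In the deposited lumi table, which is linear, Ciita ran from 77.0 to 280.5. Over all probes it was not called (limma, adjusted p = 0.973, unadjusted p = 0.0402), and the exact permutation test over the 70 orders of the tumours gave p = 0.0571, two-sided. Without Eµ-Myc 4 the difference was 0.36. Here and below, fewer cells of a type and less RNA per cell cannot be told apart in bulk tumour RNA.

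Cd74, the invariant chain, ranged over the tumours by a factor of 3.06 by its brighter probe. That probe read 12.08, 12.72, 12.64 and 11.66 in Eµ-Myc tumours 1 to 4 and 12.82, 12.15, 13.27 and 13.14 in Wrn tumours 1 to 4. Eµ-Myc 4 was again lowest, Wrn 2 stood among the lower Eµ-Myc tumours, and the other 3 Wrn tumours lay above all of the Eµ-Myc group. The differences were 0.57 ± 0.30 and 0.59 ± 0.28 for the 2 probes (SE, n = 4 and 4, limma adjusted p = 0.973 for both). The 2 probes varied together, with r = 0.99 over the 8 tumours and rho = 1 (exact permutation p = 2.48e-05 and 4.96e-05).

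Among the chains of the classical molecules, H2-Eb1, the beta chain of the E molecule, read 10.96, 10.52, 11.69 and 10.19 in the Eµ-Myc tumours and 11.00, 11.16, 11.80 and 11.19 in the Wrn tumours. Eµ-Myc tumours 3 and 4 lay at opposite ends of their group, so that the groups overlapped, and the difference was 0.45 ± 0.31 (SE, n = 4 and 4, limma adjusted p = 0.973). H2-Ea, the alpha chain that partners it and that C57BL/6 mice do not express, was detected on 1 of 8 arrays and was not tested.

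H2-Aa, the alpha chain of the A molecule, was flat in 6 tumours and high in 2. It read 7.92, 7.77, 7.53 and 7.65 in the Eµ-Myc tumours, and 7.71, 8.52, 9.19 and 7.65 in the Wrn tumours. Wrn 2 and Wrn 3 thus exceeded every Eµ-Myc tumour, while Wrn 1 and Wrn 4 lay within the Eµ-Myc range. The difference was 0.55 ± 0.32 (SE, n = 4 and 4, limma adjusted p = 0.973), with an SD of 0.16 among the Eµ-Myc tumours and 0.73 among the Wrn tumours.

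The 4 probes of H2-Ab1, the beta chain that pairs with H2-Aa, fell into 2 patterns. Probe 1, the brightest, read 11.32, 10.88, 10.95 and 11.05 in the Eµ-Myc tumours and 10.89, 11.68, 12.08 and 11.28 in the Wrn tumours, high in Wrn 2 and Wrn 3 as H2-Aa was. Probe 3 read 10.60, 11.04, 11.57 and 10.14 in the Eµ-Myc tumours and 11.04, 10.97, 11.50 and 11.29 in the Wrn tumours, highest in Eµ-Myc 3 and lowest in Eµ-Myc 4. Probe 1 correlated with H2-Aa at r = 0.93 (exact permutation p = 0.00422, rho = 0.60 with p = 0.132, r = 0.40 without the 2 tumours farthest from the median of H2-Aa), so that relation rests on those tumours. With the other 3 probes of its own gene its r was 0.25 to 0.44, whereas those 3 correlated with each other at 0.94 to 0.97. The genotype difference was alike for all 4, from 0.30 ± 0.24 to 0.47 ± 0.24 (SE, n = 4 and 4, limma adjusted p = 0.973 for each). Which transcripts or sequences each probe reads was not tested.

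**Figure D1:**
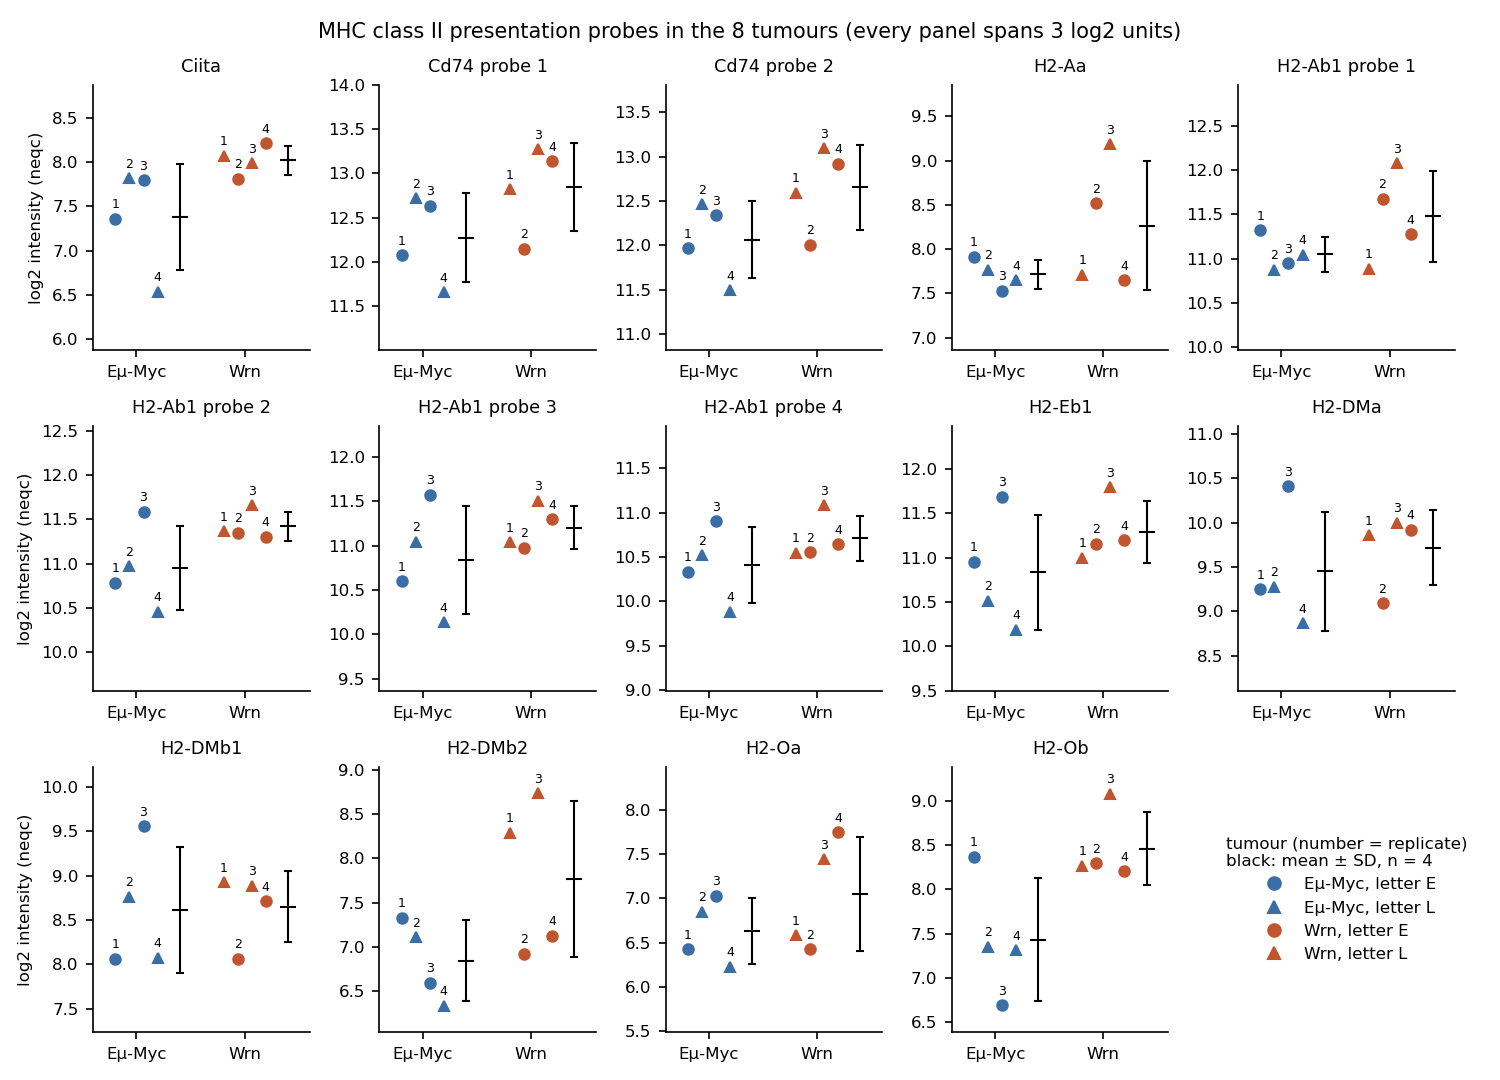
Log2 intensity (vertical axis) of each class II probe in the 4 Eµ-Myc tumours (blue) and the 4 Wrn tumours (orange), with circles for letter E, triangles for letter L, replicate numbers above the points and the mean ± SD in black. Eµ-Myc 4 was lowest for 10 of the 14 probes and Wrn 3 highest for 9, and the genotypes overlapped for every probe.

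For the peptide exchange factor, H2-DMa, its alpha chain, read 9.25, 9.28, 10.41 and 8.86 in the Eµ-Myc tumours and 9.86, 9.09, 9.997 and 9.92 in the Wrn tumours. H2-DMb1, a beta chain, read 8.06, 8.76, 9.56 and 8.07 in the Eµ-Myc tumours and 8.93, 8.06, 8.89 and 8.71 in the Wrn tumours. Both were highest in Eµ-Myc 3, and their r with each other was 0.91 (exact permutation p = 0.00236, rho = 0.81 with p = 0.0218, r = 0.80 without the 2 tumours farthest from the median of H2-DMa). The genotype differences were 0.27 ± 0.33 and 0.033 ± 0.34 (SE, n = 4 and 4, limma adjusted p = 0.975 and 0.993), and the second turned to -0.15 without Eµ-Myc 1 or without Eµ-Myc 4, to -0.060 without Wrn 1 and to -0.047 without Wrn 3.

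H2-DMb2, the other beta chain copy, had another pattern and the widest range of the 10 genes by the factor between its lowest and highest tumour, 5.27. It read 7.33, 7.11, 6.60 and 6.34 in the Eµ-Myc tumours and 8.29, 6.92, 8.73 and 7.13 in the Wrn tumours. Wrn 1 and Wrn 3, the Wrn tumours with letter L, stood above all others, and Wrn 2 and Wrn 4 lay within the Eµ-Myc range. The difference was 0.92 ± 0.40 (SE, n = 4 and 4), a ratio of 1.90 with a 95% interval of 1.03 to 3.50 (limma adjusted p = 0.973, unadjusted p = 0.0415, exact permutation p = 0.143). Its r with H2-DMb1 was 0.23 (exact permutation p = 0.57, rho = 0.21 with p = 0.619). H2-DMb1 and H2-DMb2 are closely related in sequence, and whether a probe of one also reads the other was not tested.

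Of the chains that restrain H2-DM, H2-Ob, the beta chain, gave the largest difference of the 10 genes. It read 8.37, 7.35, 6.69 and 7.32 in the Eµ-Myc tumours and 8.26, 8.30, 9.08 and 8.20 in the Wrn tumours. The Wrn tumours all exceeded Eµ-Myc 2, 3 and 4, and Eµ-Myc 1 lay within the Wrn range. The difference was 1.03 ± 0.34 (SE, n = 4 and 4), a ratio of 2.04 with a 95% interval of 1.22 to 3.41, and it was not called over all probes (limma adjusted p = 0.973, unadjusted p = 0.0111, exact permutation p = 0.114).

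H2-Oa, the alpha chain, did not share that pattern, although both chains are needed for the DO molecule. It read 6.43, 6.85, 7.03 and 6.23 in the Eµ-Myc tumours and 6.58, 6.43, 7.44 and 7.75 in the Wrn tumours, with Wrn 3 and Wrn 4 above the rest. Its difference was 0.42 ± 0.31 (SE, n = 4 and 4, limma adjusted p = 0.973), and its r with H2-Ob was 0.23 (exact permutation p = 0.577, rho = 0.048 with p = 0.935). In the lumi table H2-Oa ran from 58.9 to 198.8 and H2-Ob from 87.5 to 524.4.

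As a set, no class II probe differed between the genotypes past an adjusted p of 0.05 (0 of 14, limma), where 0.0363% of all 11024 tested probes did. At an unadjusted p under 0.05 there were 3, those of Ciita, H2-DMb2 and H2-Ob, all higher in Wrn tumours, against 2.06% of all tested probes higher at that threshold. With the deposited lumi values in place of the neqc values, 1 of the 14 passed that unadjusted threshold, against 3.64% of tested probes in either direction. All 14 means were higher in the Wrn tumours, where 51% of all tested probes were, and the 14 are not independent of each other. The genotypes overlapped for all 14, so that 0 separated them, against 2.21% of tested probes.

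The median difference over the 10 genes, each by its brightest probe, was 0.50, against 0.0068 over all tested probes. It was 0.52 in the lumi values. A single tumour moved it: it was 0.28 without Wrn 3, 0.36 without Eµ-Myc 4 and 0.64 without Eµ-Myc 3. Without Wrn 3, and likewise without Eµ-Myc 4, 13 of the 14 probes were still higher in the Wrn tumours. In each case 1 reached an unadjusted p under 0.05, against 2.99% and 2.97% of tested probes in either direction.

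Gene by gene, single tumours moved most of the differences by over 1.5 times. Without Eµ-Myc 4 they were 0.37 for probe 1 of Cd74, 0.31, 0.13 and 0.12 for probes 2 to 4 of H2-Ab1, 0.23 for H2-Eb1 and 0.074 for H2-DMa. Without Wrn 3 they were 0.24 for H2-Aa, 0.23 and 0.17 for probes 1 and 4 of H2-Ab1, 0.28 for H2-Eb1, 0.18 for H2-DMa and 0.60 for H2-DMb2. Leaving out Eµ-Myc 3 raised them to 0.61 and 0.46 for probes 3 and 4 of H2-Ab1, 0.73 for H2-Eb1 and 0.59 for H2-DMa. H2-Oa was at 0.18 without Wrn 4 and 0.62 without Wrn 2, which also put H2-DMa at 0.48. H2-Ob ran from 0.78 to 1.34 over the 8 tumours left out in turn.

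**Figure D2:**
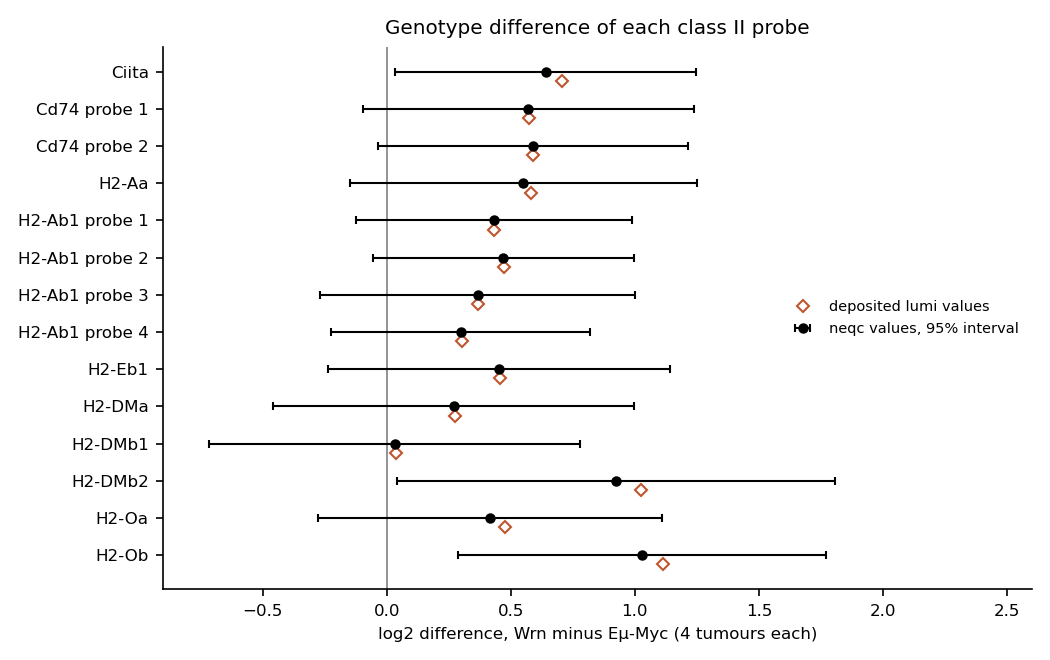
Log2 difference between the genotypes, Wrn minus Eµ-Myc with 4 tumours each (horizontal axis), for each class II probe, with black points and bars for the neqc values and their 95% intervals and open diamonds for the deposited lumi values. All 14 points lie above 0, from 0.033 for H2-DMb1 to 1.03 for H2-Ob, and the intervals of Ciita, H2-DMb2 and H2-Ob leave out 0.

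Seen by tumour, the median spread within a genotype was wider for these genes than over all tested probes. The median SD over the 14 probes was 0.49 among the Eµ-Myc tumours and 0.42 among the Wrn tumours, against 0.32 and 0.27 over all tested probes. Wrn 3 lay above the mean of the 8 tumours for all 10 genes, by a median of 0.72, and Eµ-Myc 4 below it for all 10, by a median of -0.68. Between them, the medians of the other 6 tumours ran from -0.22 in Eµ-Myc 1 to 0.27 in Wrn 1.

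Eµ-Myc 3 was the tumour in which the genes parted most. It was highest of all 8 for H2-DMa, H2-DMb1 and probe 3 of H2-Ab1, and lowest for H2-Aa and H2-Ob. Its deviations from the 8-tumour means ran from -1.25 to 0.93. H2-Ob and H2-DMb1 were the genes at those ends, so the gap between them restates this range and is no separate result. It deviated by -2.18 from its mean over the tumours on the log2 scale in Eµ-Myc 3. In the other 7 tumours the deviation lay between -0.72 and 0.99. The same tumour had the highest summed lumi intensity of the granulocyte markers, 2524 against 83.2 to 564.1 in the other 7, and of the plasma cell markers, 9291 against 2737.5 to 8265. Of the tested plasma cell markers only Mzb1 was highest in this tumour, while Xbp1 was highest in Wrn 4 and Derl3 in Wrn 3. The part of these granulocyte and plasma cell markers in the pattern was not tested.

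**Figure D3:**
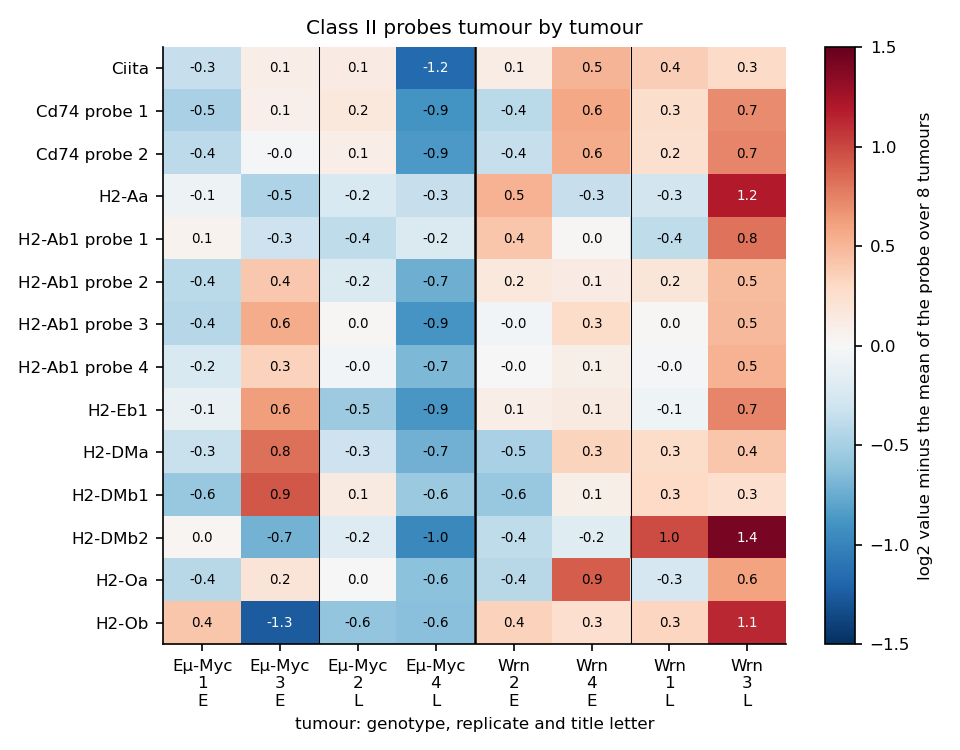
Deviation of each class II probe from its own mean over the 8 tumours (colour and printed value, log2 units), with tumours in columns by genotype and letter. The columns of Eµ-Myc 4 and Wrn 3 hold values of 1 sign for all 10 genes, and the column of Eµ-Myc 3 holds both signs, from -1.25 for H2-Ob to 0.93 for H2-DMb1.

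The title letters did not separate the class II genes. With genotype in the model, 0 of 14 probes passed an adjusted p of 0.05 between L and E tumours (limma, adjusted p from 0.767 to 0.976), where 0.0181% of tested probes did, and 0 of 14 had an unadjusted p under 0.05, against 7.44%. Means were higher in L tumours for 6 probes and lower for 8, where 51.7% of tested probes were higher, with a median of -0.093 against 0.011 over all tested probes. The direction rested on single tumours: 12 of the 14 were higher in L without Eµ-Myc 4, and 1 of the 14 without Wrn 3. H2-DMb2 had the largest size, 0.62 ± 0.37 (SE, n = 4 and 4, limma adjusted p = 0.767).

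Within letters, the genotype difference was larger in the L tumours than in the E tumours for each of the 14 probes, where 52.2% of tested probes had that direction. The median of the 14 differences was 0.82 in L and 0.21 in E, with 2 tumours of each genotype in each letter. None of the 14 interactions passed an adjusted p of 0.05 (limma, adjusted p from 0.937 to 0.987), as was so for 0% of tested probes. At an unadjusted p under 0.05 there were 2, both above 0, against 2.39% of tested probes: H2-DMb2 with 1.73 ± 0.51 and H2-Eb1 with 1.19 ± 0.50 (SE, n = 8 tumours, limma adjusted p = 0.937 for both). For H2-DMb2 the genotypes differed by 1.79 in the L tumours and 0.061 in the E tumours, and for H2-Eb1 by 1.05 and -0.15.

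Because of how the labels number the tumours, this contrast equals that of numbers 1 and 3 against numbers 2 and 4, so letter and number cannot be told apart in it. The L tumours also hold both Eµ-Myc 4 and Wrn 3. Without Eµ-Myc 4 the median interaction over the 14 probes was 0.32 in place of 0.62 and 12 of 14 kept that direction, and without Wrn 3 these values were 0.38 and 11 of 14. Scaling arrays to their medians moved the median interaction over all tested probes from 0.028 to -0.17, and 13 of the 14 class II probes then lay above 0, with a median of 0.50.

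Whether the class II genes followed Ciita was asked over the 8 tumours, in 13 relations, one for each of the other probes. All 13 had a Pearson r with Ciita above 0, as 48.2% of tested probes had, and 10 had an r of at least 0.5, which 15.7% of the 11023 tested probes other than Ciita reached. No slope on Ciita passed an adjusted p of 0.05 over all tested probes (0 of 13, limma, adjusted p from 0.148 to 0.860), where 0.0544% did, and 8 had an unadjusted p under 0.05 with a slope above 0, against 6.3%. The likeness was not particular to the class II genes. All 12 tested B cell markers, listed further below, also had an r with Ciita above 0, from 0.14 for Blnk to 0.90 for Btk. Their median r was 0.62, against 0.56 for the 9 other class II genes, each by its brightest probe. Measured on the same arrays and normalized together, the values share what differs between arrays.

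Of the 9 other genes Cd74 had the highest r with Ciita over the 8 tumours. For its brighter probe r was 0.87 (exact permutation p = 0.00161) and rho 0.90 (exact permutation p = 0.00456), with a slope of 0.90 ± 0.21 log2 units per log2 unit of Ciita (SE, n = 8, limma adjusted p = 0.148). It was 0.81 without Eµ-Myc 4, 0.69 without Eµ-Myc 4 and Eµ-Myc 1, the 2 tumours farthest from the median of Ciita, and 0.80 within genotypes, after each genotype's mean was removed. Its second probe gave 0.86, 0.79, 0.72 and 0.78. Within genotypes probe 3 of H2-Ab1 was higher, at 0.84, and the other 10 probes ran from -0.24 to 0.76.

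Probes 2, 3 and 4 of H2-Ab1 had an r with Ciita of 0.83, 0.85 and 0.80 (exact permutation p = 0.0113, 0.0092 and 0.0226), but rho was 0.50, 0.52 and 0.55 (exact permutation p = 0.216, 0.197 and 0.171). Without the 2 farthest tumours r was 0.072, 0.051 and -0.029, so the relation rests on those tumours. Much the same held for H2-Eb1, whose r of 0.65 (exact permutation p = 0.081, rho 0.48 with p = 0.243) became 0.041, and for H2-DMb1, whose r of 0.56 (exact permutation p = 0.148, rho 0.36 with p = 0.389) became -0.036. For H2-DMa r was 0.67 (exact permutation p = 0.0525, rho 0.52 with p = 0.197) and 0.28 without those tumours, and for H2-DMb2 it was 0.55 (exact permutation p = 0.155, rho 0.62 with p = 0.115) and 0.44. H2-Oa kept an r of 0.60 without them, from 0.69 with all 8 (exact permutation p = 0.0515, rho 0.71 with p = 0.0576).

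H2-Ob, H2-Aa and probe 1 of H2-Ab1 had the lowest r with Ciita over all 8 tumours, 0.36, 0.22 and 0.19 (exact permutation p = 0.393, 0.582 and 0.651) and rho of 0.26, 0.024 and -0.048 (exact permutation p = 0.536, 0.977 and 0.935). Without the 2 farthest tumours r was 0.52, -0.092 and 0.071, so that H2-Ob then stood above 7 of the other 10 probes and H2-Aa was lowest of the 13. With genotype in the model their slopes were -0.27, -0.20 and -0.21 (limma adjusted p = 0.838, 0.874 and 0.823), while those of the other 10 probes stayed above 0. In Eµ-Myc 3, Ciita at 7.80 was close to the tumours' median, while H2-Ob and H2-Aa stood at their lowest. H2-Ob and H2-Aa carry the X and Y box letters printed above, as do H2-Eb1 and H2-Oa.

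Eµ-Myc 4 carried much of the strength of the set's correlation with Ciita, though not the direction of the slopes. Without it 5 of the 13 probes had an r of at least 0.5, against 10.3% of the other tested probes, and 2 slopes had an unadjusted p under 0.05, against 2.51% of tested probes. All 13 slopes stayed above 0 without it, where 50.4% of tested probes were. Their median over the 13 probes was 0.76, against 0.66 with all 8 tumours. Leaving out any other tumour in turn left 9 to 11 of the 13 at an r of at least 0.5.

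**Figure D4:**
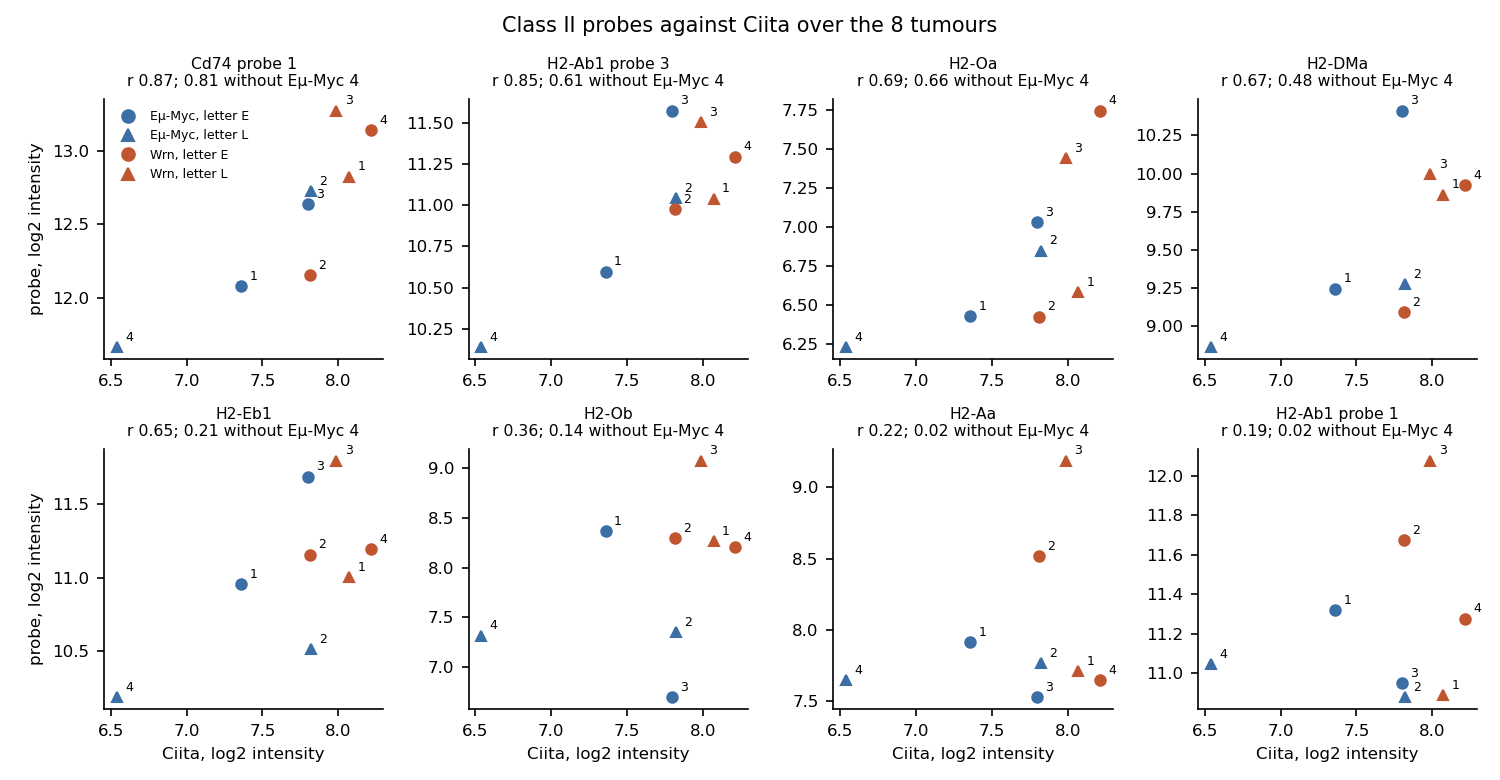
Log2 intensity of 8 class II probes (vertical axes) against that of Ciita (horizontal axes) in the 8 tumours, with blue for Eµ-Myc, orange for Wrn, circles for letter E, triangles for letter L and replicate numbers beside the points. Eµ-Myc 4 sits far to the left at a Ciita value of 6.54. Among the other 7 tumours Cd74 is higher where Ciita is higher (r = 0.81), and for H2-Aa and probe 1 of H2-Ab1 r is 0.023 and 0.020.

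Among themselves the 14 probes form 91 pairs, of which 87 had an r above 0, with a median of 0.62, against a median of 0.0020 over all pairs of tested probes. Probes of 1 gene are among these pairs. H2-Ob stood with H2-DMb2 (r = 0.78, exact permutation p = 0.0241, rho = 0.79 with p = 0.0279, r = 0.68 without the 2 tumours farthest from the median of H2-DMb2) and with probe 1 of H2-Ab1 (r = 0.76, exact permutation p = 0.0264, rho = 0.71 with p = 0.0576, r = 0.55 without the 2 farthest from its median). It stood against H2-DMb1 (r = -0.32, exact permutation p = 0.428, rho = -0.33 with p = 0.428), although r was 0.37 without the 2 farthest tumours.

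**Figure D5:**
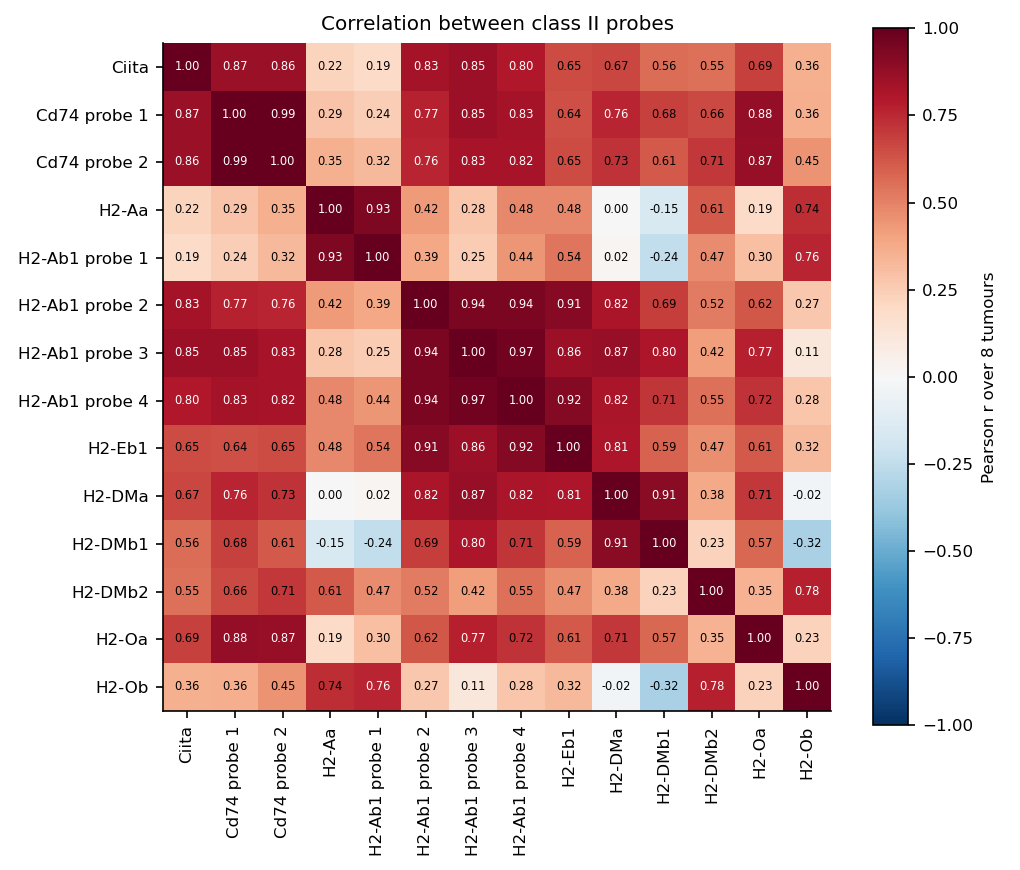
Pearson r between each 2 of the 14 class II probes over the 8 tumours, as colour and printed value. One block joins Ciita, Cd74, probes 2 to 4 of H2-Ab1, H2-Eb1, H2-DMa, H2-DMb1 and H2-Oa, with r of at least 0.56, and H2-Aa, probe 1 of H2-Ab1 and H2-Ob are joined by r of 0.74 to 0.93. H2-DMb2 has its highest r with H2-Ob (0.78) and also 0.71 with probe 2 of Cd74.

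Of the 7654 tested genes outside the set, the 8 with the highest Pearson r with Ciita over the 8 tumours were picked. They were Fbxo9, of an SCF ubiquitin ligase, at 0.98, the SUMO protease Senp7 at 0.97, the sialyltransferase St8sia4 at 0.96, the zinc finger gene Zfp94 at 0.96, the Ras-like gene Diras2 and Plxdc1 both at 0.95, and the kinase Cdk19 and Arhgdib, abundant in lymphocytes, both at 0.94. Each r was above that of any class II gene. Picking the top of so many genes favours this, so it is no test of the class II genes. Each of the 8 genes was lowest in Eµ-Myc 4. Senp7, for example, stood at 6.12 there and between 7.60 and 8.77 in the other 7 tumours. The slopes of Senp7, Diras2 and Zfp94 on Ciita passed over all tested probes (limma adjusted p = 0.0284, 0.0284 and 0.036), and no class II gene's did. Such calls depended on the setting. Among all tested probes 6 slopes passed here, 6 without Eµ-Myc 3 and 4 without Eµ-Myc 2. With the lumi or GUI values, with genotype alone or the replicate number in the model, or without any other single tumour, 0 passed. With genotype and letter in the model 4 passed, and with array weights 6. Other normalizations and filters of the raw values gave 1 to 14.

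Of 12 listed genes for the proteins through which Ciita acts on promoters 10 were tested, 6 higher and 4 lower in the Wrn tumours, with a median of 0.028 (-0.055 to 0.060 with 1 tumour left out) and 0 past the adjusted threshold. Rfxank, an RFX subunit, differed by -0.36 ± 0.20 and the NF-Y subunit Nfyc by 0.19 ± 0.17 (SE, n = 4 and 4, limma adjusted p = 0.973 for both). Rfxank, Rfxap and Creb1 were highest in Eµ-Myc 4, where Ciita was lowest, and the other tested genes of the list were highest in other tumours. Rfx5, the DNA-binding subunit of RFX, has 1 probe, which was not detected on any array, and Crebbp was not analysed here. Here and below, a silent gene and a failing probe cannot be told apart where no array detects a probe.

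Of 16 genes listed as acting upstream of Ciita 11 were tested, 6 higher and 5 lower, with a median of 0.071 (0.020 to 0.19 with 1 tumour left out). Irf8, an interferon regulatory factor of B cells and macrophages, differed by 0.58 ± 0.28 and Ets1, a transcription factor of lymphocytes, by 0.49 ± 0.21 (SE, n = 4 and 4, limma adjusted p = 0.973 for both). Both were lowest in Eµ-Myc 4, as Ciita was, and so were Irf4, Ebf1, Ifngr1 and Irf2 of this list. The other tested genes of the list were lowest in other tumours. None of the 11 passed the adjusted threshold. Pax5, by its 1 probe, and Prdm1, by its 2, were not detected on any array, and Tcf3 was not analysed here.

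Of the genes that prepare antigen in the endosome 7 were tested, 6 lower and 1 higher in the Wrn tumours, where 51% of all tested probes were higher. The differences were mostly small, with a median of -0.088 (-0.24 to -0.024 with 1 tumour left out) and 0 past the adjusted threshold. The 1 higher gene was Ifi30, the thiol reductase that opens disulfide bonds of antigens, at 0.58 ± 0.25. The lowest was Ctsb, a cathepsin, at -0.24 ± 0.21 (SE, n = 4 and 4, limma adjusted p = 0.973 for both). Among genes of class II turnover and costimulation, 2 of 5 tested were higher, with a median of -0.25, and 4 of 5 without Eµ-Myc 2, with a median of 0.031. Cd86, a costimulatory ligand, differed by 0.43 ± 0.30 and Cd83, which slows class II turnover, by -0.54 ± 0.51 (SE, n = 4 and 4, limma adjusted p = 0.973 for both).

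Of the genes of MHC class I presentation, which shows peptides from the cytosol to CD8 T cells, 9 were tested, 2 higher and 7 lower, with a median of -0.12 and 0 past the adjusted threshold. Without Wrn 1 or Eµ-Myc 2 there were 4 higher and 5 lower. Tap2, a subunit of the peptide transporter, was at -0.23 ± 0.25 and Nlrc5, the class I counterpart of Ciita, at 0.23 ± 0.26 (SE, n = 4 and 4, limma adjusted p = 0.973 for both). Along chromosome 17 from H2-Oa to H2-Eb1 the gene table lists 13 protein-coding genes, of which 8 are class II members and 5 are not. Of those 5, Brd2, Psmb9, Tap1, Psmb8 and Tap2, 1 was higher in the Wrn tumours, with differences from -0.23 to 0.0014 and a median of -0.17, while all 8 members between and beside them were higher. H2-Eb2, a further class II gene, was at 0.26 ± 0.25 (SE, n = 4 and 4, limma adjusted p = 0.973).

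Markers of the cell types a tumour can hold were measured on the same arrays. All 12 B cell markers tested were detected on every array, and Cd72 was not analysed here. All 12 were higher in the Wrn tumours, with a median of 0.32, and their summed lumi intensity ran from 17494 to 32957 in Eµ-Myc and from 22046 to 37133 in Wrn tumours, lowest in Eµ-Myc 4. Without Wrn 4 the B cell markers were 8 higher and 4 lower with a median of 0.15, and without Eµ-Myc 4 they were 10 and 2 with 0.20. Of 14 tested macrophage and monocyte markers 13 were lower in the Wrn tumours, with a median of -0.51, and their sum ran from 7984.5 to 12503 in Eµ-Myc and from 5494 to 9941 in Wrn tumours, lowest in Wrn 3. With 1 tumour left out 12 to 14 of them were lower, and the median was -0.33 without Eµ-Myc 2. Fcer1g and C1qc, an Fc receptor chain and a complement component of macrophages chosen after their values were seen, had differences of -0.78 ± 0.26 and -0.58 ± 0.20 (SE, n = 4 and 4, limma adjusted p = 0.973 for both). The class II sum, by contrast, ran from 7701 to 14346 and from 11877 to 21085, lowest in Eµ-Myc 4 and highest in Wrn 3. None of these markers passed the adjusted threshold (limma), and their part in the class II values was not tested.

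Markers of dendritic cells, the other strong bearers of class II, were near or below detection. Of 10, 7 were not detected on any array, among them Itgax, Flt3 and Zbtb46, and only Ccr7 was tested, at 0.26 ± 0.35 (SE, n = 4 and 4, limma adjusted p = 0.986). Of the plasma cell markers Jchain, Sdc1 and Tnfrsf17 were not detected on any array, and the 3 tested had a median of 0.12, which was -0.031 without Eµ-Myc 1 and -0.061 without Eµ-Myc 4. The 4 tested T cell markers, all lower in the Wrn tumours, had a median of -0.43, but 4 of 4 were higher without Eµ-Myc 2, with a median of 0.17. Their sum was 928.9 in that tumour and 97.7 to 275.8 in the others. Nkg7, the 1 tested NK cell marker, was likewise at -0.74 with all tumours and 0.15 without Eµ-Myc 2. Granulocyte markers, 5 of 6 lower, had a median of -0.35, and all 6 were higher without Eµ-Myc 3, with a median of 0.25. Endothelial markers, 3 of 5 higher, had a median of 0.023, between -0.15 and 0.091 with 1 tumour left out. Leaving out tumours for these lists was chosen after seeing the data.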

How the data were processed

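Per the file headers, the deposited raw table gives bead intensity, which is linear, with a detection p-value beside it for every probe and array. The series table holds, as deposited by the authors, lumi intensity, also linear, and an Illumina GUI score whose square root matches log2 for bright probes. Both hold 25697 probes and were joined by rank over the arrays, since they name probes differently. No source used here gives the software settings. Symbols are those of the platform annotation after an update by RefSeq gene number (GRCm38.p6), and 1719 probes had none.

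Intensities were processed in R 4.3.3 by limma 3.58.1's neqc (offset 16, quantile, log2), which understates changes of dim probes. Probes with a detection p under 0.01 on at least 4 arrays were tested, 11024 in all, 7665 genes, with lmFit and eBayes, two-sided, Benjamini-Hochberg over all of them. A probe was called at an adjusted p under 0.05. Median signal lay between 49.9 and 52.8 per array, and arrays correlated at 0.945 to 0.984. The fit was also run on simulated data with independent noise and planted changes larger than any genotype difference of a class II probe. That run does not cover differences as small as these. Exact permutation tests and tables were made with scipy 1.17.1, pandas 2.3.3 and numpy 2.4.6 under Python 3.11.15, and figures with matplotlib 3.10.9.

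The members, lists and tests were chosen with earlier results of these data known. Named were all members, the 2 genes of each pathway list with the lowest p, the 8 genes most like Ciita by Pearson r, and markers absent or tested alone, and others in the text were chosen after their values were seen. Probes of H2-Ab1 and Cd74 are numbered by brightness.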

Additional observations from a re-analysis of the deposited data

Results flagged for a closer look

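In 2 of the 28 groups of 4 tumours (14 probes in each genotype), 1 tumour stood far from the other 3, where chance puts about 1 in 20 groups past the same limit. H2-DMa was at 9.09 in Wrn 2 against 9.86 to 9.997 in the other Wrn tumours. H2-Ob was at 9.08 in Wrn 3 against 8.20 to 8.30 in the other Wrn tumours. Neither value was left out of any comparison.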

How the results depend on the processing

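Counts of class II probes past the adjusted threshold were 0 under every alternative run, for genotype, letter, interaction and slope on Ciita, including the lumi and GUI values, an offset of 50, cyclic loess and median scaling, other filters on dim probes, array weights, letter or genotype as a covariate and each tumour left out in turn. The median genotype difference ran from 0.28 to 0.64, both limits from leaving out a tumour (Wrn 3 and Eµ-Myc 3). The median letter difference over the 10 genes ran from -0.19 to 0.16. The median slope on Ciita, each gene by its brightest probe, ran from 0.50 with median scaling to 0.83 without Eµ-Myc 4. Without 1 tumour the median interaction over the 10 genes, not the 14 probes used above, ran from 0.40 to 1.08. It was 1.08 without Eµ-Myc 2, 0.96 without Wrn 1 and 0.92 without Wrn 4. H2-DMb1 changed sign between genotypes with array weights (-0.046) and without 1 tumour (-0.15 to 0.35): it was -0.15 without Eµ-Myc 1 and Eµ-Myc 4, -0.060 without Wrn 1 and -0.047 without Wrn 3. Slopes on Ciita turned for H2-Aa (-0.20), probe 1 of H2-Ab1 (-0.21) and H2-Ob (-0.27) with genotype in the model, and were -0.15, -0.26 and -0.25 with letter too. The cause was not tested. With H2-Ab1 read by its second brightest probe, an alternative chosen after seeing the data, the median genotype difference was 0.51. Replicate numbers showed no pairing of the tumours. After each genotype's mean was removed from every probe, same-numbered tumours correlated at -0.21 to -0.0037. Since same-numbered tumours carry opposite letters, this cannot separate a lack of pairing from a difference by letter. With the number as a block the median genotype difference was 0.50 with 0 of 14 probes called. The interaction could not be fitted with that block. A slide block was not run, since the headers give no slide, and Ciita has 1 probe.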
